A study of Mus musculus with 21 samples.

Results

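RNA levels of 40 genes of the presynaptic release machinery were followed in 21 mouse samples. The rule that chose the genes is a list of symbols and uses no measured value, but the list was made with earlier results of these data known. The genes comprise vesicle, SNARE, synaptotagmin, Rab3 and active zone genes with a pair of neurexins, in 8 role groups. All 40 were among the 39008 features of the mouse table, and 38 were among the 31553 features of the Neuro2a table, where Pclo and Synpr were not listed. Neuro2a is a mouse neuroblastoma line. In 6 cultures (CRISPRa) it received 750 ng of a guide RNA plasmid with 750 ng of a sadCas9-VP64 plasmid. In 6 control cultures (VP64 only) it received 750 ng of the sadCas9-VP64 plasmid without a guide. In CRISPR activation, a Cas9 that does not cut carries the activator VP64 to a site set by the guide, here for Scn2a, the gene of a voltage-gated sodium channel. All 12 cultures thus carried the activator. The in vivo samples were NeuN-sorted nuclei from 200 mg of cortex. The 3 WT mice were wild type and the 3 Het mice Scn2a+/-. A further 3 Scn2a+/- mice (Het CRISPRa) had received rAAV-Scn2a-sgRNA and AAV-sadCas9-VP64, 500 nL in all, in the medial prefrontal cortex 4 weeks earlier. All mice were on a C57BL/6J background. The labels give neither the age of the mice nor the promoter of the viral constructs, and leave unsaid what, if anything, the WT and Het mice were injected with. They also leave unsaid whether libraries of 1 group came from separate cultures or animals, so the p-values measure the spread over these libraries only, and that spread may be technical. Culture and mouse are used here only as names for 1 library each.

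Neurotransmitter release rests on vesicles that are filled, tethered, primed and fused at the active zone. Synapsins hold vesicles in reserve, Rab3 proteins and the RIM, Munc13, Bassoon and Piccolo scaffolds bring them to the release site, and the SNAREs (synaptobrevin on the vesicle, syntaxin and SNAP25 on the plasma membrane) drive fusion. Synaptotagmins sense calcium, complexins clamp and promote SNARE-driven fusion, NSF with its SNAP adaptors takes spent SNARE complexes apart, and neurexins join the terminal to the postsynaptic side. In cortical neurons these genes are expressed together, whereas neuroblastoma cells carry part of the set.

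Levels are in CPM (a gene's reads per 1000000 counted reads of its library), with the SD between libraries. Differences are on the log2(CPM + 0.5) scale, which understates changes of low genes, with the SE of a limma fit. Adjusted p-values come from that fit, by the Benjamini-Hochberg method across every gene in it, and a member was called at an adjusted p below 0.05. Depth was estimated from the CPM values. It lay between 15.5 and 20.97 M (1000000) reads for the cultures and between 15.5 and 20.1 M for the mice, so that 3 reads, taken here as the floor, are 0.143 to 0.193 CPM. The floor covers counting error only. In Neuro2a the targeted gene Scn2a averaged 3.09 ± 0.23 CPM without the guide and 4.61 ± 0.50 CPM with it (n = 6 each), and rose by 0.50 on the log2 scale (limma, adjusted p = 0.0053). In nuclei it was at 250.3 ± 18.8 CPM in WT, 229.7 ± 28.7 in Het and 271.3 ± 17.7 in Het CRISPRa (n = 3 each). The Neuro2a libraries held the neuroblastoma marker Hand2 at 347 CPM in CRISPRa, with the mature neuronal marker Rbfox3 at 0.041 CPM. The WT nuclei held Slc17a7 of excitatory neurons at 944 CPM and Rbfox3, which encodes NeuN, at 288 CPM. Their 5 astrocyte markers summed to 9.72 to 15.7 CPM.

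The 4 genes whose Neuro2a groups did not overlap over all 12 cultures (below) were chosen for a view of the promoter. Ppfia2 and Vamp1 separated within each library set (below), but not over all cultures, and were not chosen. Promoter windows of the 4 chosen genes are shown. Each runs from 250 bases before to 50 after the gene start, on the gene's strand, and comes from RefSeq on GRCm38.p6, an older build than the one named for the deposited files. Capitals mark matches on either strand to the GC box (GGGCGG) or the core of the cAMP response element (TGACG). A match is a description of the letters and not a sign of binding.
Stx1a, chr5:135023232-135023531, plus strand: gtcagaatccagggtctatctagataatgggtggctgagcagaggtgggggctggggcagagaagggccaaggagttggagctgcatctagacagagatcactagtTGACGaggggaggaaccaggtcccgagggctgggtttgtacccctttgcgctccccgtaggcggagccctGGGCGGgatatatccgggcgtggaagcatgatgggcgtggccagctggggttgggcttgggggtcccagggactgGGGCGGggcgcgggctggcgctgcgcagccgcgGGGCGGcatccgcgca
Cplx1, chr5:108549978-108550277, minus strand: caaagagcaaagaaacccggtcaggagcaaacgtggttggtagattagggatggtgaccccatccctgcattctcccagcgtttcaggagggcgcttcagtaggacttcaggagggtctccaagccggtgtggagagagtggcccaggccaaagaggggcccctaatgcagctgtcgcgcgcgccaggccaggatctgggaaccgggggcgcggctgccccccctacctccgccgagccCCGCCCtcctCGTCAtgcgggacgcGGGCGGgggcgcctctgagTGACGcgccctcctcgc
Rims3, chr4:120854549-120854848, plus strand: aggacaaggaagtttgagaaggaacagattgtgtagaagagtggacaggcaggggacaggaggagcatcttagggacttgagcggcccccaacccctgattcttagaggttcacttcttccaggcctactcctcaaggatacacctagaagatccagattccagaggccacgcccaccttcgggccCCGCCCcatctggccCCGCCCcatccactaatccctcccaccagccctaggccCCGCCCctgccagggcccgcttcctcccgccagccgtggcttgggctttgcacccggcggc
Syt1, chr10:109010926-109011225, minus strand: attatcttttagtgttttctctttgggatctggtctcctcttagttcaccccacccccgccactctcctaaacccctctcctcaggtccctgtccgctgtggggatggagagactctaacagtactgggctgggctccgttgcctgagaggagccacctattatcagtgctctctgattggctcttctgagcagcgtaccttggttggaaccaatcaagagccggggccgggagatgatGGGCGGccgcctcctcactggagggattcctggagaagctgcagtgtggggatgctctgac
The Stx1a window held 3 GC boxes and 1 element core, that of Cplx1 2 of each, that of Rims3 3 GC boxes and that of Syt1 1 GC box. A second window of Syt1 (chr10:109009062-109009361) held neither. Windows were found for 32 of the 40 members, 42 windows in all. A GC box was present in 27 of them (64.3%), against 35.7% of all 32851 windows in the table, and the median GC content was 61.3% against 52.7%. The element core was in 8 windows (19.0% against 20.8% of all), TATAAA in 3 (7.14% against 13.6%) and CACGTG in 4 (9.52% against 7.15%), each searched on both strands. Of the remaining members called in Neuro2a, Erc2 had 2 GC boxes and Cplx2 none, and neither window held the element core.

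RNA of these genes was at very different levels in the 2 systems. The members summed to 8260 to 8861 CPM in nuclei (40 genes) and to 1223 to 1446 CPM in Neuro2a (38 genes). The 2 tables were normalized separately, so levels are set side by side with no test. The RNA source also differed, sorted nuclei against cultured cells, and its part in the levels and ranks was not tested. To compare genes with each other, CPM was divided by the length of the gene's exons. In WT nuclei the order was led by Syt7, a slow, high-affinity calcium sensor, at 134 CPM per kb, then Snap25 at 115, Stx1a, the plasma membrane syntaxin, at 111, Unc13a, the main Munc13 priming factor, at 101, and the vesicle protein Syp at 78.1. Syt7 lay above Snap25 in every library, whereas Snap25 overlapped with Stx1a and Stx1a with Unc13a. At the bottom stood Syn3 at 0.264, Unc13c at 0.675, Cplx3 at 1.90 and Erc1 at 2.13 CPM per kb. Of the 39 pairs of neighbours in the WT order, 23 overlapped between libraries.

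Neuro2a cells had another order. In VP64 only, Syt11, a synaptotagmin that does not bind calcium, led at 40.1 CPM per kb. It was followed by Syn2 at 16.8, Syt1, the fast calcium sensor, at 13.8, Rims3, a short RIM that lacks the Rab3-binding and PDZ domains, at 12.7, and Vamp2 at 10.4. Snap25, ranked 2 in WT nuclei, was ranked 25 here at 1.97 CPM per kb, and Syp, ranked 5, was ranked 26 at 1.46. Of 31 neighbouring pairs among the members tested in Neuro2a, 26 overlapped between libraries, so that most of this order is not resolved.

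**Figure D1:**
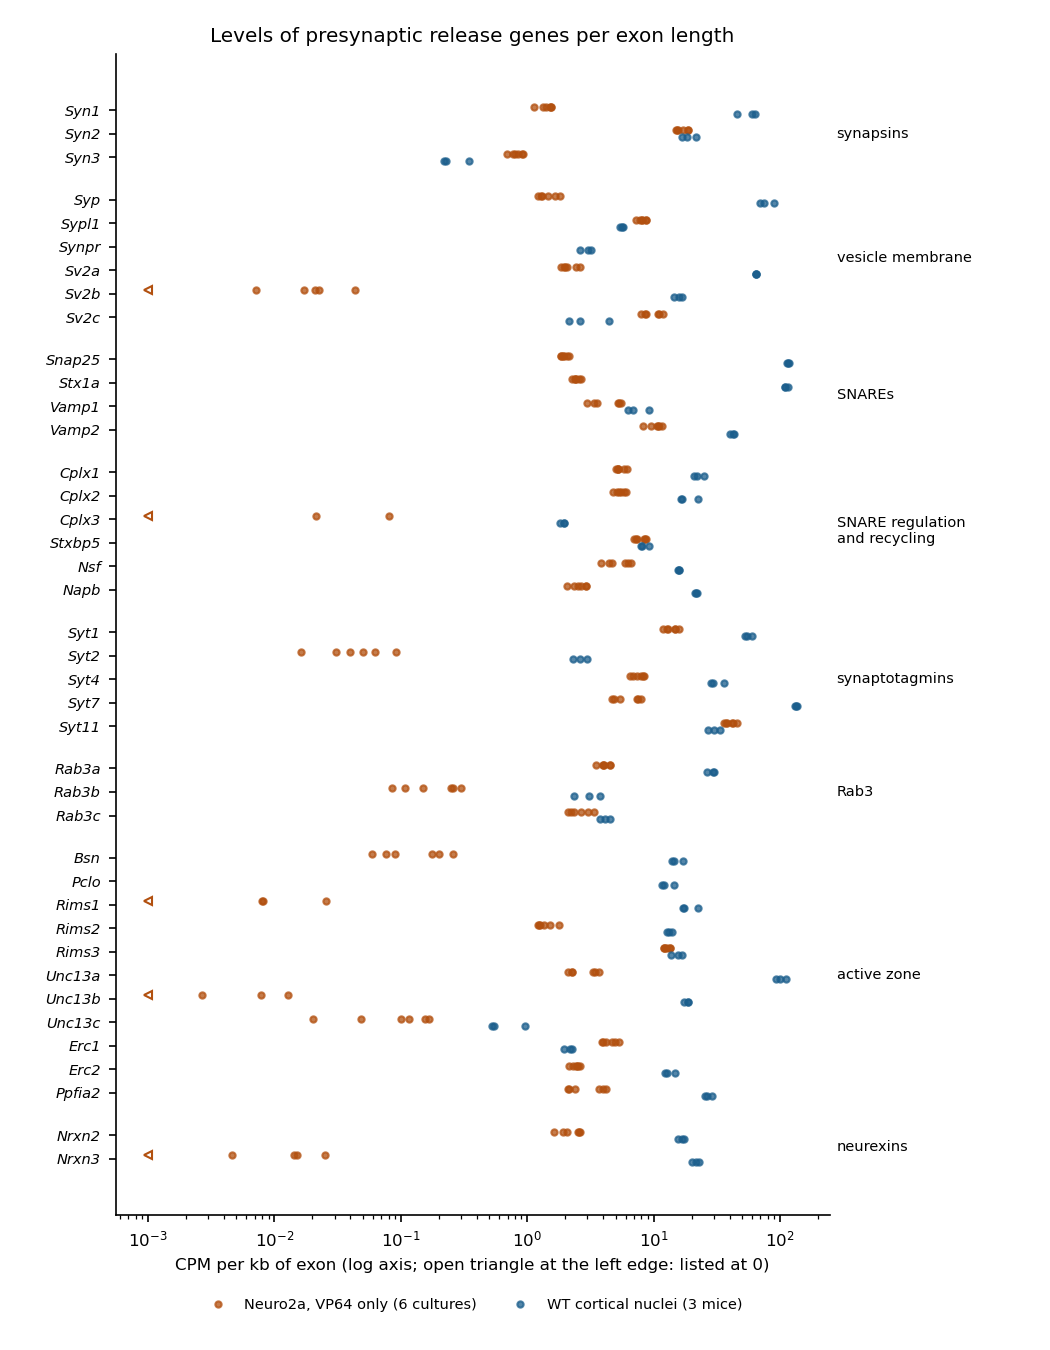
Level of each member in CPM per kb of exon (log axis) in 6 VP64-only Neuro2a cultures (orange) and 3 WT mice (blue), 1 point per library, by role; open triangles mark a library listed at 0. Most members lie further right in nuclei, with Syt7 at 134 and Snap25 at 115, while Syt11 at 40.1, Sypl1, Sv2c, Syn3 and Erc1 lie further right in Neuro2a.

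Paralogs of a role split between the 2 systems. Within the SV2 family, Sv2c was the main member in Neuro2a (76.8 to 114 CPM in VP64 only), with Sv2a at 8.58 to 12.2 CPM and Sv2b at 0 to 0.363 CPM. In WT nuclei Sv2a stood at 298 to 300.1 CPM and Sv2b at 121 to 140.0, with Sv2c at 20.9 to 43.3 CPM. Among the RIM genes, Rims3 was at 96.9 to 107 CPM in VP64 only and Rims1 at 0 to 0.187, at about its floor, while WT nuclei held all 3 between 109 and 164 CPM. Unc13b, which also primes vesicles, was at 398 to 428 CPM in WT nuclei and at 0 to 0.293 in VP64 only, and Nrxn3 at 252 to 287 CPM against 0 to 0.316. Bsn, the active zone scaffold Bassoon, was at 223 to 270.2 CPM in WT nuclei and at 0.938 to 4.12 CPM in VP64 only. Of the 38 members listed in Neuro2a, 6 lay under the filter for testing (0.5 CPM in at least 6 libraries): Syt2, Sv2b, Rims1, Unc13b, Cplx3 and Nrxn3, with 0 to 14 reads in any library. These are at or near the floor, and a change in them was not detectable at this depth. The remaining 32 were tested, among them the sparse Rab3b and Unc13c with 5 to 18 and 3 to 25 reads per library.

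The Neuro2a comparison sets cultures with the guide plasmid and the activator against cultures with the activator alone. The groups also differed in the transgene feature McherryPuro, at 1574 to 5782 CPM in CRISPRa and at 0 CPM in every VP64 only library. Its part in the changes was not tested. Stx1a, Cplx1 and Cplx2 rose, and Syt1, Rims3 and Erc2 fell. The changes were between 0.28 and 0.49 on the log2 scale, and 6 of 32 tested members were called. Across all 14398 genes tested 15% were called, 10% higher and 5.02% lower, so the members' share of 18.75% was close to that of all genes. The median change of the members was -0.01, against 0.06 for all genes.

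By role, 1 of 4 SNAREs and 2 of 5 tested SNARE regulators rose with none falling, while 2 of 8 tested active zone genes and 1 of 4 tested synaptotagmins fell with none rising. No synapsin (3), vesicle membrane protein (4), Rab3 gene (3) or neurexin (1) passed the test among those tested. This split by role depends on the fit. With a term for the library set (below), Vamp1, Stxbp5, Sv2c, Sypl1, Ppfia2 and Syt4 also passed as lower. Snap25, Nsf and Nrxn2 then also passed as higher, and 39.5% of all genes were called. Under that fit SNAREs and SNARE regulators were called in both directions.

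Stx1a, the syntaxin of the plasma membrane SNARE complex, was at 5.99, 6.42 and 7.09 CPM (lowest, median, highest) in VP64 only and at 7.60, 8.71 and 9.51 CPM in CRISPRa. Every CRISPRa culture lay above every control, with 96 to 168 reads per library. The means were 6.51 ± 0.39 and 8.72 ± 0.66 CPM (n = 6 each), a ratio of 1.34, and the log2 change was 0.39 ± 0.09 (limma, adjusted p = 0.0080). Its change was 0.43 in library set 7 (replicates 1 to 3) and 0.36 in set 8 (replicates 4 to 6), and in set 8 alone it did not pass (limma, adjusted p = 0.059).

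Cplx1, a complexin that binds assembled SNAREs, was at 10.97, 11.5 and 13.6 CPM in VP64 only and at 13.8, 14.7 and 16.7 CPM in CRISPRa, again without overlap. It rose by 0.31 ± 0.08 (limma, adjusted p = 0.020), and did not pass in set 7 alone (0.072) or with quantile scaling (0.117). Cplx2, its close paralog, was at 23.4, 26.6 and 29.7 CPM and at 27.4, 33.7 and 38.1 CPM. The groups of Cplx2 overlapped, and its rise of 0.29 ± 0.09 passed narrowly (limma, adjusted p = 0.044). It was lost when any of 9 of the 12 libraries was left out (highest adjusted p = 0.0998). Snap25, the SNARE partner of Stx1a, gave 0.24 ± 0.09 and did not pass (limma, adjusted p = 0.082). Vamp2, the vesicle SNARE, gave 0.05.

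Syt1, which triggers fast release on calcium binding, was at 98.4, 115 and 132 CPM in VP64 only and at 78.6, 85.7 and 95.96 CPM in CRISPRa. No library of one group reached into the other. It fell by 0.40 ± 0.08 on the log2 scale (limma, adjusted p = 0.0054) and was called under all 22 alternatives, with adjusted p from 4.5e-06 to 0.015.

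Rims3 was at 96.9, 100.4 and 107 CPM in VP64 only and at 55.2, 74.0 and 92.2 CPM in CRISPRa. The CRISPRa cultures formed 2 clusters by library set, and all lay below the controls. It fell by 0.49 ± 0.13 (limma, adjusted p = 0.022) and was lost without CRISPRa replicate 1 or 3 (highest adjusted p = 0.055). Erc2, an ELKS scaffold of the active zone, was at 20.8, 23.9 and 25.5 CPM and at 16.9, 19.1 and 22.3 CPM, with overlapping groups. It fell by 0.28 ± 0.09 (limma, adjusted p = 0.043) and was lost without any of 8 of the 12 libraries (highest adjusted p = 0.097).

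**Figure D2:**
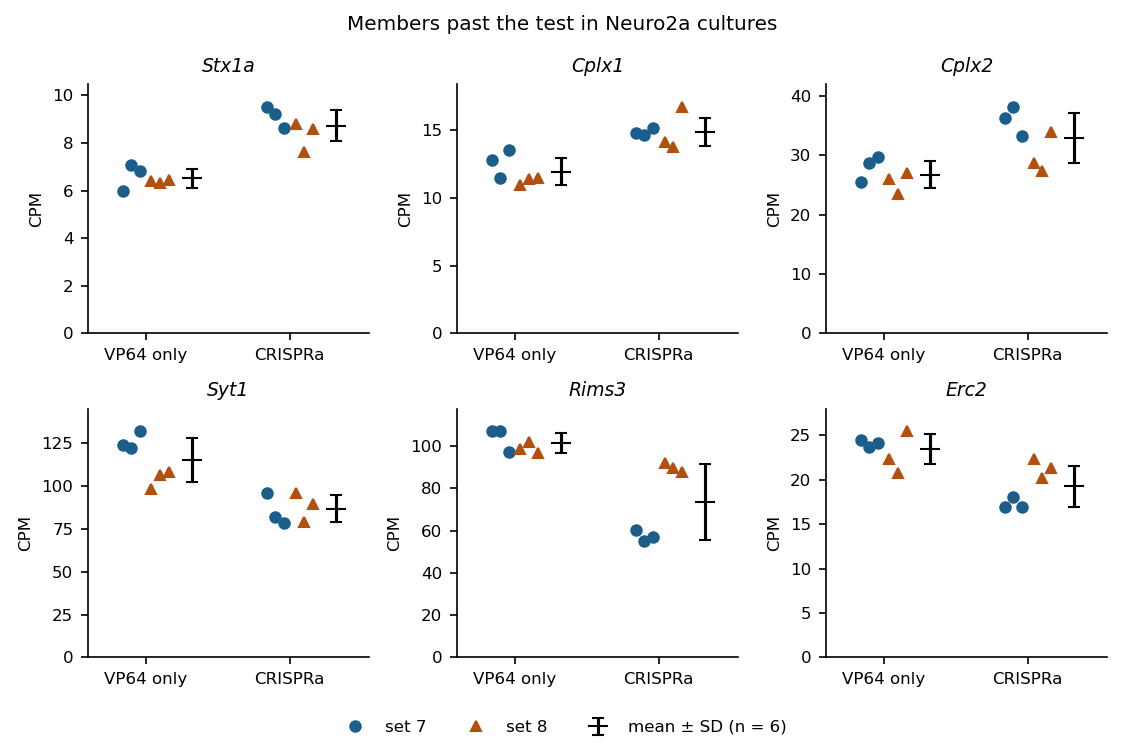
CPM (axis from 0) of the 6 members called in Neuro2a, 1 point per culture, with library set 7 as blue circles, set 8 as orange triangles and the mean ± SD of each group in black. The groups of Stx1a, Cplx1, Syt1 and Rims3 do not overlap, and in Rims3 and Erc2 the CRISPRa cultures of set 7 lie below those of set 8.

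Groups did not overlap for 4 of 32 members (12.5%), 2 higher and 2 lower, against 8.75% of all genes tested, 5.74% higher and 3.01% lower. At an unadjusted p below 0.05 there were 11 members, where 30.3% of all genes passed that line. When the libraries were paired by replicate number, 12 members were called (5 higher, 7 lower), while the share of all genes called rose to 31.3%. The 6 additional members were Snap25 and Nrxn2, higher, and Ppfia2, Syt4, Vamp1 and Sv2c, lower. With scaling by the median of ratios the split of calls was 2 higher and 4 lower (15% of all genes called), and with quantile scaling 1 higher and 4 lower (14.4%). Cplx2 was the call lost under the first, where Stxbp5 passed as lower, and Cplx1 and Cplx2 were lost under the second, where Ppfia2 passed as lower. With the library set as a covariate 15 members were called (39.5% of all genes). In set 7 alone 14 were called (45.9%), in set 8 alone 9 of 31 (24.1%), and without a filter 4 of 38 (4.98%). The authors' deposited table lists 37 members, of which 8 were called, the 6 above with Ppfia2 (-0.62) and Stxbp5 (-0.24), in the same directions, against 18.2% of all genes there.

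The remaining tested members did not pass in the main fit, which has no term for the library set. Their values ran from -0.52 for Ppfia2, a liprin-alpha of the active zone, through -0.44 for Syt4, a synaptotagmin of dense-core and other secretory vesicles, and -0.41 for the synaptobrevin Vamp1, up to 0.24 for the synapsin Syn1 and 0.33 for Bsn. Ppfia2, Vamp1 and Sv2c passed as lower in set 7 alone and also in set 8 alone, where 45.9% and 24.1% of all genes were called. For Sv2a (0.00), Erc1 (0.01) and Syt11 (-0.01) the change in both sets together was close to 0. The 95% interval lay within a 1.5-fold change in either direction for 25 of the 32 members.

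The 12 Neuro2a libraries carry names of 2 library sets, 7 (replicates 1 to 3 of both groups) and 8 (replicates 4 to 6), whose meaning the labels do not give. The change from VP64 only to CRISPRa differed between the sets for 9 of 32 members (limma interaction, adjusted p below the threshold), where 21.8% of all genes did. In 8 of the 9 the change in set 8 lay above that in set 7 (9.42% of all genes), and in 1, Syn2, below it (12.3% of all genes). The balance over all genes depends on the scaling. It was 1357 above and 1775 below, but 1760 and 1326 with the median of ratios, where the members stayed at 8 and 1. In the main fit the 8 were 3 of 4 tested synaptotagmins (Syt1, Syt4 and Syt11), 3 active zone genes (Rims3, Erc2 and Ppfia2), the SNARE-binding tomosyn Stxbp5, and Rab3b.

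Rims3 showed this most plainly. In set 7 it was at 104 ± 5.78 CPM in VP64 only and at 57.5 ± 2.59 in CRISPRa, a change of -0.85. In set 8 it was at 99.2 ± 2.66 and 89.8 ± 2.26 CPM (n = 3 each), a change of -0.14. Both falls passed the test within their set (limma, adjusted p = 1.6e-08 and 0.031). The difference of the changes was 0.70 ± 0.07 (limma, adjusted p = 1.1e-06).

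Syt4 went from 27.0 ± 1.92 to 15.3 ± 0.57 CPM in set 7 and from 31.8 ± 0.89 to 30.2 ± 4.04 CPM in set 8. Its changes were -0.80 and -0.08, and differed by 0.73 ± 0.12 (limma, adjusted p = 0.00028). Stxbp5, which binds syntaxin in place of synaptobrevin, went from 141 ± 1.38 to 108 ± 1.19 CPM in set 7 and from 120.0, 123 and 116 to 122, 120.4 and 122 CPM in the libraries of set 8. Its changes of -0.39 and 0.02 differed by 0.41 ± 0.06 (limma, adjusted p = 3.0e-05).

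Syt11 moved in opposite directions. It fell by 0.19 in set 7, from 225 ± 9.89 to 197 ± 9.70 CPM, and rose by 0.17 in set 8, from 193 ± 5.60 to 217 ± 8.72 CPM (limma within sets, adjusted p = 0.0045 and 0.0086). The difference was 0.36 ± 0.07 (limma, adjusted p = 0.00056), while over both sets its change was -0.01. Syn2, the synapsin with the highest level here, went the other way, with 0.11 in set 7 and -0.19 in set 8, a difference of -0.30 ± 0.08 (limma, adjusted p = 0.012).

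Syt1 fell in both sets, by 0.56 and by 0.25, and the difference of 0.31 ± 0.10 passed the test (limma, adjusted p = 0.029). For Erc2 the changes were -0.47 and -0.10 with a difference of 0.37 ± 0.12 (limma, adjusted p = 0.028). The calls for Erc2 and Syt1 were each lost without any of 6 of the 12 libraries. For Ppfia2 the changes were -0.67 and -0.36 with a difference of 0.31 ± 0.11 (limma, adjusted p = 0.043). Rab3b, at 0.299 to 1.15 CPM and 5 to 18 reads, gave -0.37 and 0.59 with a difference of 0.96 ± 0.34 (limma, adjusted p = 0.047). These last 2 did not pass with the replicate block, under which 7 members and 20.3% of all genes did (limma, adjusted p = 0.058 and 0.074), or without any of 9 and 10 of the 12 libraries. Stx1a, Cplx1 and Cplx2, the members that rose, gave differences of -0.08, 0.15 and -0.13 that did not pass, with 95% intervals of -0.43 to 0.28, -0.15 to 0.44 and -0.39 to 0.13.

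**Figure D3:**
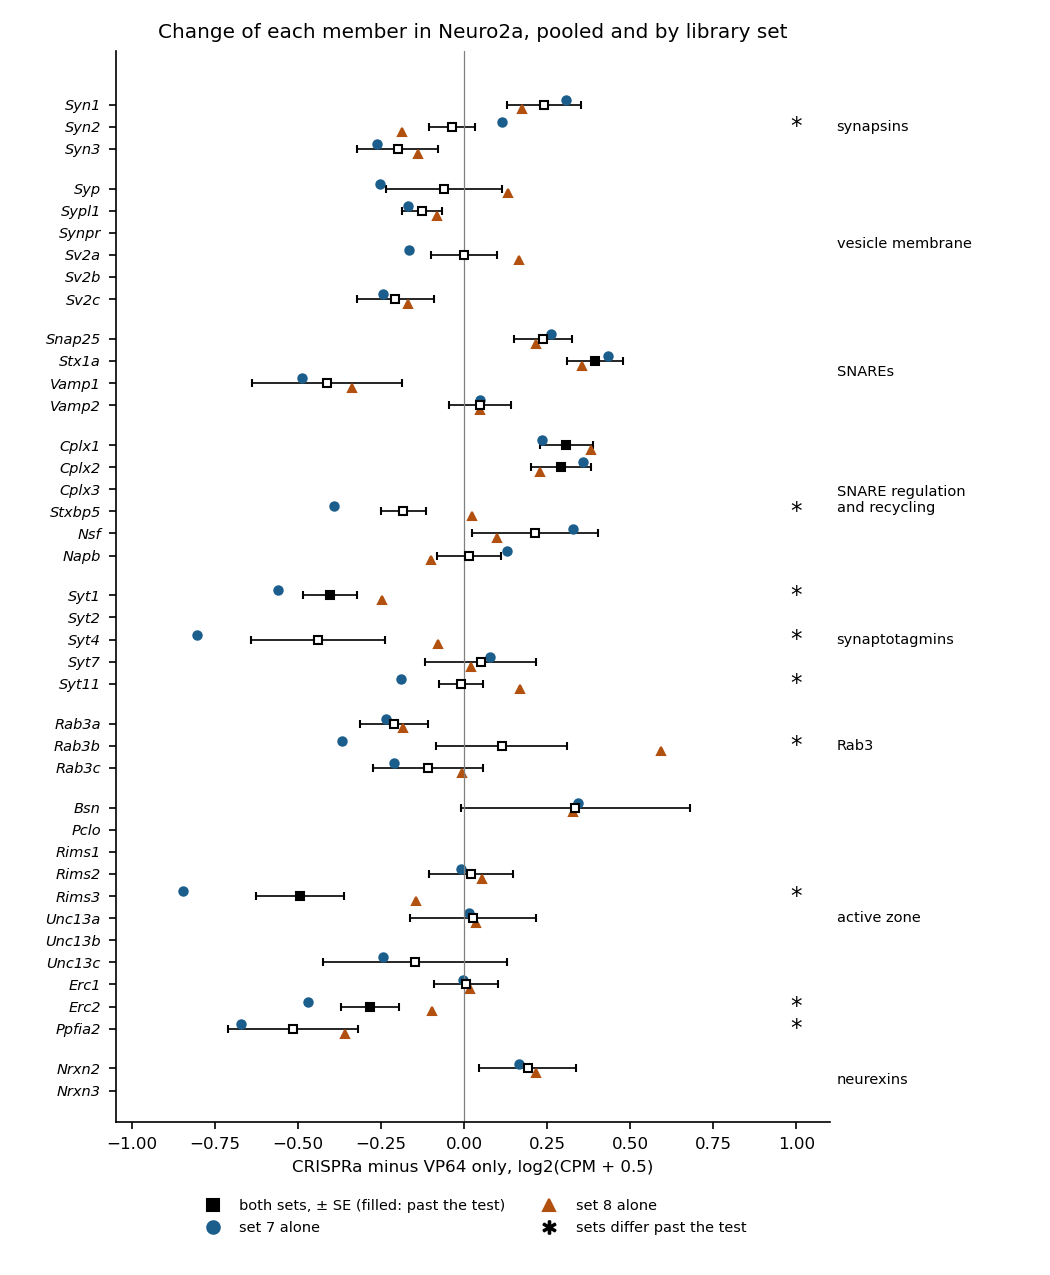
Change from VP64 only to CRISPRa in log2(CPM + 0.5) for the 32 tested members by role, over both library sets (squares ± SE, filled where called), in set 7 (blue circles) and in set 8 (orange triangles); asterisks mark the 9 members whose sets differ, rows without points are members not tested, and Unc13c has no set 8 point since it was under the filter there. In Rims3, Syt4 and Stxbp5 the set 7 points lie at -0.85, -0.80 and -0.39 and those of set 8 at -0.14, -0.08 and 0.02.

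The level of the activator transcript moved with these sets. sadCas9-VP64 was at 1683 to 2154 CPM in the CRISPRa cultures of set 7 and at 564 to 632 in those of set 8. In VP64 only it was at 2498 to 2646 and at 318 to 370 CPM. Its part in the set differences was not tested. The summed level of the 3 neuronal markers was 216 to 247 CPM in CRISPRa against 253 to 267 CPM in VP64 only in set 7, and 184 to 202 against 168 to 178 CPM in set 8, carried by Tubb3 with Rbfox3 near 0. Its part in the result was not tested.

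In cortical nuclei no member passed the test in any comparison. The comparison of Het with WT asks what the loss of 1 copy of Scn2a did. Scn2a RNA itself lay at 203 to 260 CPM in Het and at 230 to 266 in WT, ranges that overlap, and was not called. In Het minus WT 0 of 40 members were called by limma, as was 0% of the 18967 genes tested. At an unadjusted p below 0.05, there were 7 members (17.5%, against 5.01% of all genes): Syt1, Cplx1, Syt4, Unc13a, Bsn, Synpr and Nsf. This count was 2 without Het replicate 1 or WT replicate 2 and 16 without Het replicate 3. The median over the members was -0.14, with 32 of 40 below 0, against a median of -0.05 and 60.3% of all genes below 0. With scaling by the median of ratios these became -0.09, 28 of 40, -0.01 and 50.9%. In bulk nuclei, fewer nuclei of a type and less RNA per nucleus cannot be told apart.

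Syt1 had the smallest p. It was at 443, 500.0 and 455 CPM in the 3 WT mice, at 382, 376 and 376 in Het and at 440.4, 434 and 366 in Het CRISPRa. All Het mice lay below all WT mice, and in Het CRISPRa 2 mice lay between Het and WT and 1 below Het. The difference of Het from WT was -0.30 ± 0.09 (95% interval -0.50 to -0.10, limma, adjusted p = 0.88).

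Cplx1 was at 48.1, 54.8 and 45.9 CPM in WT, at 27.4, 38.0 and 43.5 in Het and at 42.2, 36.2 and 42.4 in Het CRISPRa. Both Scn2a+/- groups lay below WT without overlap, and Het replicate 1 was lowest. The difference of Het from WT was -0.47 ± 0.16 (95% interval -0.81 to -0.12, limma, adjusted p = 0.88).

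Syt4 was at 111, 141 and 116 CPM in WT, at 90.1, 109 and 99.6 in Het and at 123, 118 and 103 in Het CRISPRa, with a difference of -0.29 ± 0.12 between Het and WT. Bsn was at 223, 230 and 270.2 CPM in WT, at 190.4, 209 and 209.9 in Het and at 239, 247 and 206 in Het CRISPRa, with -0.24 ± 0.10. In both the Het mice lay below WT and overlapped with Het CRISPRa. Unc13a went the other way. It was at 1259, 1175 and 1405 CPM in WT, at 1491, 1473 and 1546 in Het and at 1282, 1451 and 1508 in Het CRISPRa, with a difference of Het from WT of 0.24 ± 0.10. None of these 3 passed (limma, adjusted p = 0.88 for each).

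**Figure D4:**
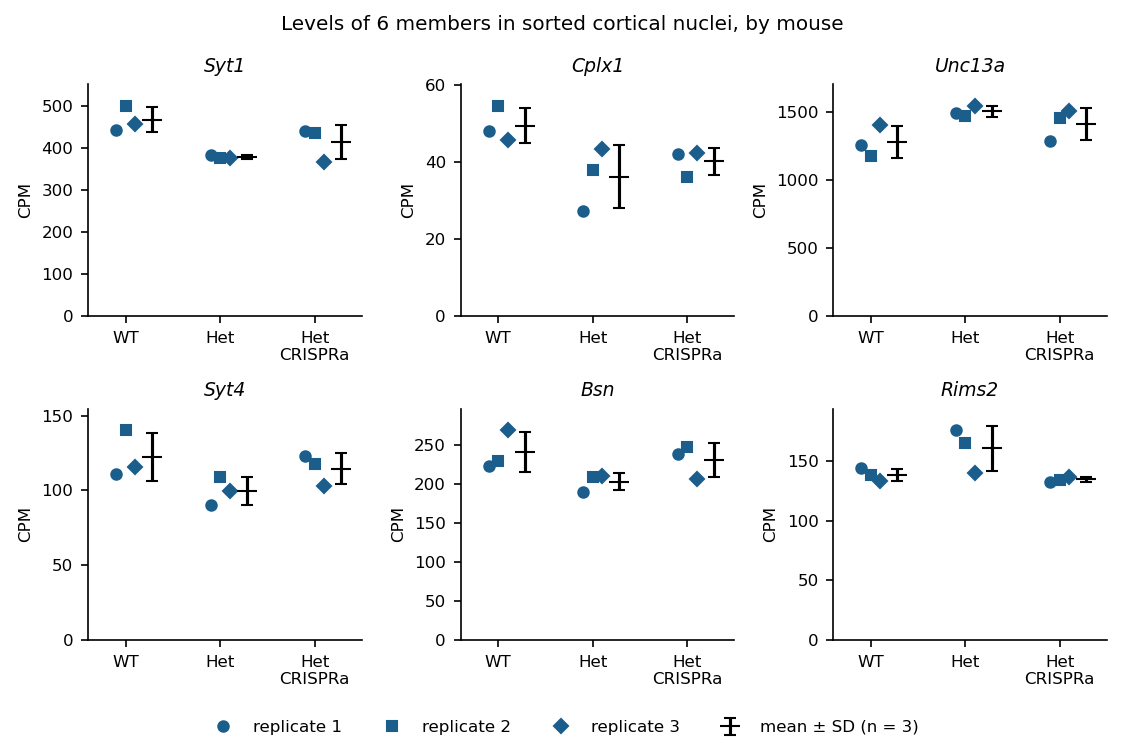
CPM (axis from 0) of 6 members in nuclei of 3 WT, 3 Het and 3 Het CRISPRa mice, 1 symbol per mouse, with the mean ± SD of each group in black; replicate numbers do not pair mice. In Syt1, Cplx1, Syt4 and Bsn all Het mice lie below all WT mice and in Unc13a above, and in Rims2 the Het CRISPRa mice lie below Het, yet no member passes the test.

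WT and Het did not overlap for 9 of 40 members (22.5%, against 10.7% of all genes). Unc13a was higher in Het (3.37% of all genes were), and Sv2a, Vamp2, Cplx1, Nsf, Napb, Syt1, Syt4 and Bsn were lower (7.3% of all genes were). By role, all 6 vesicle membrane genes, all 3 synapsins and all 3 Rab3 genes had values below 0, as did 60.3% of all genes. The medians of these roles were -0.17, -0.31 and -0.33, while the 11 active zone genes had a median of -0.01, with 4 above 0. Among the synapsins Syn1, at -0.03, ran from -0.17 to 0.08 over 17 alternatives, and Syn3 lay at only 1.33 to 4.23 CPM. None of these values passed the test. Het replicate 1 was the lowest of the 9 libraries for 17 of the 40 members, and WT replicate 2 the highest for 13 and WT replicate 3 for 9. The summed level of 8 striatal markers also ranged widely over the mice, from 181 CPM in Het replicate 1 to 734 in Het replicate 3 and from 401 in WT replicate 1 to 891 in WT replicate 3. The group ranges of that sum were 181 to 734 CPM in Het, 382 to 614 in Het CRISPRa and 401 to 891 in WT, with the mean of all 8 markers at 0.5 CPM or more in each group. The sum of the 3 neuronal markers Rbfox3, Map2 and Tubb3 was 800.3 to 851 CPM in WT, 747 to 769 in Het and 692 to 832 in Het CRISPRa. Het lay below WT in this sum without overlap, but the markers did not move together. Map2 averaged 380 CPM in Het and 463 in WT, and Tubb3 61.5 and 66.2, while Rbfox3 was higher in Het, at 317 against 288 CPM. The part of either sum in the members' values was not tested.

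The comparison of Het CRISPRa with Het concerns the injected activator and guide in Scn2a+/- mice. What, if anything, the Het mice were injected with is not given, so injection, virus and constructs cannot be told apart here. The transgene features were low in these nuclei. In Het CRISPRa sadCas9-VP64 was at 4.09 to 7.12 CPM and McherryPuro at 1.45 to 1.84 CPM, and both were at 0 CPM in Het. These values do not tell how many nuclei carried the constructs. Of the 40 members 0 were called by limma (0.0422% of all genes were), and 1, Rims2, had an unadjusted p below 0.05 (2.5%, against 5.25% of all genes). This count was 6 without Het replicate 3, 7 without Het CRISPRa replicate 3 and 0 without Het replicate 1. Rims2, a RIM scaffold that binds Rab3 and calcium channels, was at 177, 166 and 140.4 CPM in Het, at 133, 135 and 137 in Het CRISPRa and at 144, 138 and 133 in WT. Every Het CRISPRa mouse lay below every Het mouse, and all but the lowest lay within the WT values. Its difference was -0.25 ± 0.10 (95% interval -0.46 to -0.03, limma, adjusted p = 0.81).

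The next smallest p belonged to Bsn at 0.18 ± 0.10, Syt4 at 0.20 ± 0.12, the scaffold Pclo at 0.22 ± 0.13 and Syt11 at -0.19 ± 0.11, all with groups that overlapped (limma, adjusted p = 0.81). Pclo was at 214, 249 and 274 CPM in Het, 295, 318 and 243 in Het CRISPRa and 263, 271 and 324 in WT, and the ranges of Het CRISPRa and WT overlapped. Of the 40 members 28 had values above 0 and the median was 0.08, against 0.04 for all genes. The median was 0.02 without Het replicate 1 and 0.13 without Het CRISPRa replicate 3. With scaling by the median of ratios it was 0.05, with 24 of 40 above 0. Rims2, lower, was the one member without overlap (2.5%, against 9.98% of all genes, 5.37% higher and 4.61% lower).

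This contrast and Het minus WT share the Het samples, so their values are set side by side only. Syt1 gave -0.30 in Het minus WT and 0.12 in Het CRISPRa minus Het, Cplx1 -0.47 and 0.17, Syt4 -0.29 and 0.20, Bsn -0.24 and 0.18, Unc13a 0.24 and -0.09, and Rims2 0.21 and -0.25. The 2 values of a gene add up to its difference of Het CRISPRa from WT.

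In Het CRISPRa minus WT 0 of 40 members were called by limma (0.00527% of all genes were), and 3 had an unadjusted p below 0.05 (7.5%, against 1.77% of all genes). This count was 0 without WT replicate 2, 1 without WT replicate 1 or Het CRISPRa replicate 3, and 6 without WT replicate 3. Synpr, a vesicle protein akin to synaptophysin, was at 28.7, 30.3 and 24.5 CPM in WT, at 16.8, 21.8 and 26.7 in Het and at 21.3, 21.1 and 18.6 in Het CRISPRa, so that Het CRISPRa lay below WT without overlap and Het spanned both. The difference of Het CRISPRa from WT was -0.44 ± 0.17 (95% interval -0.81 to -0.08, limma, adjusted p = 1.00).

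Syt11 was at 140.1, 176 and 155 CPM in WT, at 147, 136 and 155 in Het and at 137, 135 and 113 in Het CRISPRa, with a difference of Het CRISPRa from WT of -0.29 ± 0.11. Syt2, a fast calcium sensor of some inhibitory and brainstem terminals, was at 19.9, 22.7 and 17.6 CPM in WT and at 14.6, 11.5 and 17.7 in Het CRISPRa (15.6, 16.9 and 20.6 in Het), with -0.46 ± 0.18 and groups that overlapped. Stx1a was at 307, 290.3 and 292 CPM in WT and at 322, 319 and 355 in Het CRISPRa (293, 322 and 297 in Het), which lay above WT without overlap, with 0.16 ± 0.08. Syt1 gave -0.18 ± 0.09. Groups did not overlap for 7 members (17.5%, against 7.13% of all genes), with Stx1a higher (2.68% of all genes) and Synpr, Sv2a, Cplx1, Nsf, Syt1 and Syt11 lower (4.46%). The median over the members was -0.06, with 29 of 40 below 0, and -0.02 for all genes. Without Het CRISPRa replicate 3 the median was -0.01 with 21 below 0, and without WT replicate 3 it was -0.01 with 23 below 0. Without Het CRISPRa replicate 2 it was -0.11. With scaling by the median of ratios it was -0.04 with 24 below 0. The sum of 7 inhibitory markers was 215 to 296 CPM in Het CRISPRa and 304 to 336 in WT, without overlap, and 210.1 to 357 in Het. The sum of 4 hippocampal and thalamic markers was 15.3 to 16.6 CPM in Het CRISPRa, 19.7 to 22.004 in WT and 11.1 to 33.5 in Het. Their part in the members' values was not tested.

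**Figure D5:**
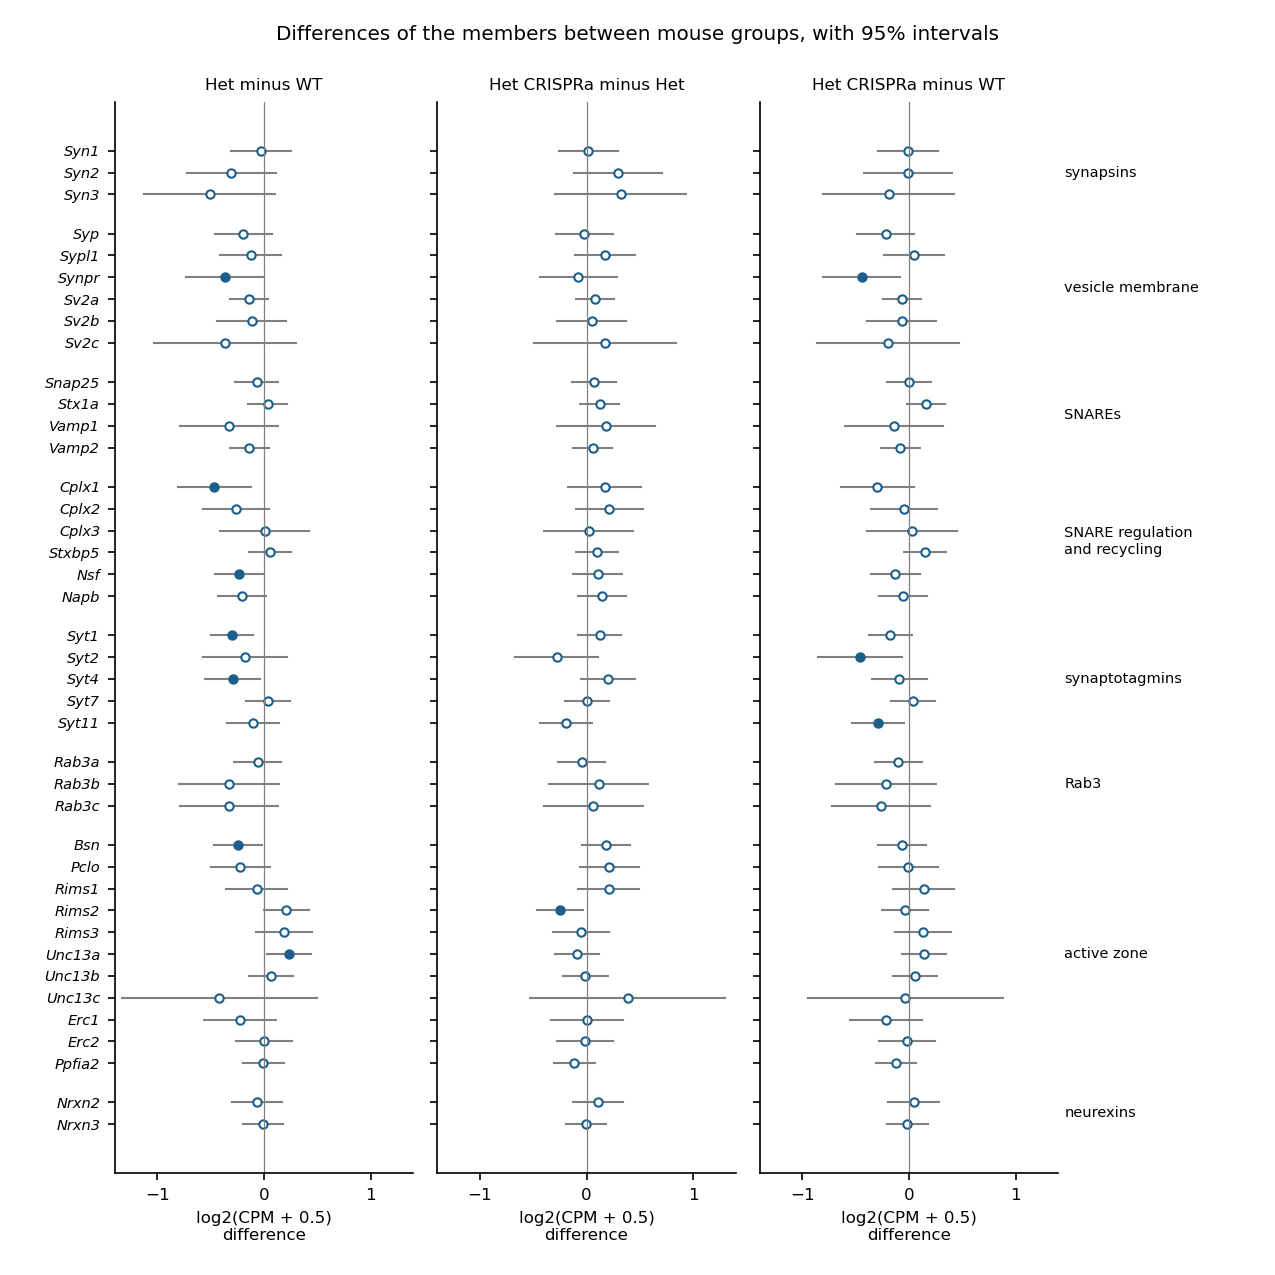
Differences in log2(CPM + 0.5) of the 40 members by role in the 3 mouse comparisons, with 95% intervals of the limma fit as lines and filled points where the unadjusted p is below 0.05. The values run from -0.51 to 0.24 in Het minus WT, from -0.28 to 0.39 in Het CRISPRa minus Het and from -0.46 to 0.16 in Het CRISPRa minus WT, and no member passes the adjusted test.

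The precision of these comparisons can be read from the intervals. The 95% interval lay within a 1.5-fold change in either direction for 31 of 40 members in Het minus WT, 34 in Het CRISPRa minus Het and 31 in Het CRISPRa minus WT. Stx1a is an example: its interval ran from -0.15 to 0.22 in Het minus WT. The widest belonged to Unc13c, at 2.07 to 10.2 CPM. The authors' deposited tables likewise called 0 of the 40 members in each mouse comparison. They called 0.0647% of all genes in Het minus WT, 0.317% in Het CRISPRa minus Het and 0.0403% in Het CRISPRa minus WT. With shares this small, 0 of 40 says little about the members.

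Other genes of the release pathway were taken from a list of 73 that are not members. In Neuro2a 50 were tested, of which 3 rose and 4 fell (14%, against 15% of all genes). Synj1, the phosphatase synaptojanin of vesicle uncoating, rose by 0.24 (limma, adjusted p = 0.016), Sncg, a synuclein, by 0.49 (0.028) and Scamp5 by 0.31 (0.0397). Rab27a, a Rab of secretory granule docking, fell from 26.0 ± 2.87 to 16.2 ± 2.48 CPM, a change of -0.68 (limma, adjusted p = 0.0015). Rab3ip, an exchange factor for Rab proteins, fell by 0.34 (0.0083), and Scamp1 by 0.15 (0.0402). Sncb fell by 0.69 (0.0412). In nuclei 68 were tested and none passed in any of the 3 comparisons by limma. At an unadjusted p below 0.05 there were 10 of the 68 in Het minus WT, 4 in Het CRISPRa minus Het and 1 in Het CRISPRa minus WT, where the shares of all genes were 5.01%, 5.25% and 1.77%. The last 2 counts are near those shares.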

How the data were processed

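PolyA RNA was sequenced from 21 mouse samples, 12 from Neuro2a cultures and 9 from sorted cortical nuclei, grouped by their titles, genotype and treatment. Tools named in the submitters' processing notes are featureCounts, STAR 2.7.8a, R 4.4 and DESeq2 1.44. The builds are mm39 and GRCm39, and no roles are given. Per the file headers, the deposited tables hold CPM, made by the authors from reads per gene, and the tool and strand setting are not given in the sources used here. Between 70.8 and 82.4% of values above 0 lay within 0.01 of whole reads, so no count test was run. Comparison tables deposited by the authors hold DESeq2's log2 fold changes, standard errors and p-values. The signal values in them are the authors' mean normalized counts, used here only to pick genes for a check of the sign. The score values in them are the authors' test statistics and were not used. Signs were turned to Het minus WT.

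The tests covered 14398 Neuro2a genes that reached 0.5 CPM in 6 or more libraries and 18967 mouse genes that reached it in 3 or more, without the 2 transgene features. The test was limma 3.58.1 in R 4.3.3 (lmFit, eBayes with trend) on log2(CPM + 0.5), with all 9 mouse libraries in 1 fit, checked on simulated data. Depth came from the most frequent CPM value of each library. Exon lengths came from a GRCm38 annotation and promoters from RefSeq. Tables and plots used Python 3.11.15, pandas 2.3.3, numpy 2.4.6 and matplotlib 3.10.9. The authors' replicate numbers were tried as pairs: Neuro2a libraries of 1 number had correlations of their deviations of 0.305 to 0.499, all above 0.1, and other numbers of the same library set 0.284 to 0.505. In mice they were -0.110 to 0.418, and the numbers were not taken as pairs.

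The members and lists were chosen with earlier results of these data known. Named in full were the members past the test, or the 5 with the smallest p where none passed. Alternatives were the scaling, pseudocount, filter, library set, replicate block and leaving out each library.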

Additional observations from a re-analysis of the deposited data

Results flagged for a closer look

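In 76 groups of 6 Neuro2a libraries, the highest or lowest was tested for standing apart from the others by Dixon's criterion, which chance meets in about 1 in 20 groups, and 5 groups had such a library. Snap25 was at 12.6 CPM in CRISPRa replicate 5, the lowest of its group, and was called as higher (limma) when that library was left out. The other 4 concern members at or near the floor: Sv2b at 0.792 CPM in CRISPRa replicate 1, Unc13b at 0.580 CPM in CRISPRa replicate 5, Cplx3 at 0.239 CPM in VP64 only replicate 5 and Rims1 at 0.187 CPM in VP64 only replicate 1 were each the highest of their group.

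The change from VP64 only to CRISPRa differed between library sets 7 and 8 by the limma interaction test for 9 members. As set 8 minus set 7 on the log2 scale, the differences were 0.70 for Rims3, 0.73 for Syt4, 0.41 for Stxbp5, 0.36 for Syt11, 0.37 for Erc2, 0.31 for Syt1, 0.31 for Ppfia2, 0.96 for Rab3b and -0.30 for Syn2. Rims3, Stxbp5, Syt4, Syt11 and Syn2 kept the call under all 15 alternatives of that test.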

How the results depend on the processing

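The 6 Neuro2a members called became 12 with the replicate block that pairs libraries by number, 15 with a term for the library set, 14 in set 7 alone and 9 in set 8 alone, while the share of all genes called went from 15% to 31.3%, 39.5%, 45.9% and 24.1%. Leaving out 1 library gave 3 to 8 members, with 3 without CRISPRa replicate 1 or 3, while 10.5% to 16.9% of all genes were called. The 9 set differences became 5 to 8 when 1 library was left out (16.8% to 22.9% of all genes) and 7 with the block (20.3%). Median-of-ratios scaling gave 6, quantile scaling 5, no filter 4, and both pseudocounts and the filter of 1 CPM gave 6. Over all genes the split of calls was 1443 higher and 723 lower, and 1085 and 1078 with the median of ratios. Syt11 reversed in set 8 alone (0.17). Stx1a was not called in set 8 alone (adjusted p = 0.059), and Cplx1 was not called in set 7 alone (0.072) or with quantile scaling (0.117). The cause was not tested. In mice 0 members were called in the 3 comparisons under every alternative run, the block included. Depth limits the 6 untested members.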

Other observations

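Release genes outside the 40 members differed between the Neuro2a library sets as well. Of the 50 tested, 16 passed the limma interaction test (32%, against 21.8% of all genes). In 9 the change in set 8 lay above that in set 7 (9.42% of all genes), and in 7 below it (12.3% of all genes). Syngr3, a synaptogyrin of synaptic vesicles, went from 33.0 to 38.6 CPM across VP64 only to 19.95 to 26.9 CPM across CRISPRa in set 7, and from 42.0 to 47.1 CPM to 51.8 to 56.0 CPM in set 8, a difference of 0.80 (limma, adjusted p = 0.00018). Syt6, a synaptotagmin that forms disulfide-linked dimers, was at 124 to 129 CPM in VP64 only and 91.5 to 106 in CRISPRa in set 7, and at 75.8 to 82.1 and 83.8 to 86.4 CPM in set 8, a difference of 0.45 (limma, adjusted p = 0.00021). Rab27a gave a difference of 0.62 (limma, adjusted p = 0.0012) with CRISPRa below VP64 only in both sets.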
